A study of Mus musculus with 24 samples.

Results

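The RNA levels of 10 genes of the p53 pathway were followed in HY19636 cells, a line of mouse pancreatic ductal adenocarcinoma: Trp53, Cdkn2a, Mdm2, Cdkn1a, Ccng1, Bax, Bbc3, Sesn1, Zmat3 and Trp53inp1. They were taken by gene name from the deposited expression table, and make up 10 of its 54532 genes. All 10 were among the 12061 genes that reached a level of 1 FPKM (reads scaled to gene length and to library total) in at least 3 libraries and were tested. The series concerns serine supplied by hepatocytes to pancreatic cancer cells in the liver, and it crossed 3 factors: genotype, medium and culture. Phgdh KO cells, which are knockout for phosphoglycerate dehydrogenase, the enzyme that opens the serine synthesis pathway, were compared with WT cells. Each genotype was grown in medium without serine and glycine (Ser/Gly-free) and in medium with both. Each was grown together with hepatocytes (coculture) and without them (alone). This gives 8 groups of 3 libraries, 24 in all: KO in coculture Ser/Gly-free, KO in coculture with Ser/Gly, KO alone Ser/Gly-free, KO alone with Ser/Gly, and the same 4 conditions for WT. The sources used here do not give which part of Phgdh was edited, whether the KO cells are 1 clone, how the cancer cells were parted from the hepatocytes, or the Trp53 genotype of the line. The labels number the replicates but name no separate cultures, so a p-value here measures library-to-library spread that may be only technical. The 4 comparisons of KO with WT use separate libraries, whereas the genotype, medium and culture comparisons reuse the same libraries among themselves.

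The transcription factor p53, encoded by Trp53, is held at a low level by the ubiquitin ligase Mdm2, whose own gene p53 activates. DNA damage, nucleolar stress and oncogene signalling free p53 from Mdm2, the last through the Arf product of Cdkn2a. p53 then binds paired copies of a short sequence near its target genes, which arrest the cell cycle (Cdkn1a), limit oxidative and nutrient stress (Sesn1, Trp53inp1) or drive apoptosis (Bax, Bbc3). Control of p53 is largely at the protein level, so the RNA of Trp53 does not measure its activity, and Cdkn1a is also transcribed through other factors.

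Promoter matches to the p53 binding sequence are shown first, since most members are known p53 targets. RefSeq promoter windows of 300 bases (250 before to 50 after an annotated start, build GRCm38.p6) were found for 8 of the 10 genes, 13 windows in all. They were searched on both strands for the p53 half-site consensus, 10 bases long and its own reverse complement, and for the paired element of 20 bases, made of adjacent half-sites with at most 1 mismatch outside the core letters. The pairing and the mismatch were chosen after the windows had been seen. A half-site occurred in 8.36% of all 32851 windows and in 6 of the 13 member windows. The paired element occurred in 18 of the 32851 promoter windows, 0.0548%, and 1 of these 18 was the window at the upstream start of Cdkn1a. It lies at chr17:29090928-29090947 on the plus strand, 31 bases before that start and 2821 bases before the downstream annotated start of the gene. The Cdkn1a element (capitals) is printed with 10 bases on either side, and below it the single half-sites (capitals) of the other genes, each read 5′ to 3′ on the strand of its gene.
Cdkn1a element, chr17:29090918-29090957, plus strand: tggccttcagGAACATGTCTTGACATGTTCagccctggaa
Mdm2 half-site, chr10:117710925-117710954, minus strand: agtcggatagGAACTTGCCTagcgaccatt
Ccng1 half-site, chr11:40755452-40755481, minus strand: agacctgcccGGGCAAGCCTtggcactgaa
Bax half-site, chr7:45467080-45467109, minus strand: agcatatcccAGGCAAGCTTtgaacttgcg
Sesn1 half-site, chr10:41887256-41887285, plus strand: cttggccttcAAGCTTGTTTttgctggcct
Trp53 half-site, chr11:69580274-69580303, plus strand: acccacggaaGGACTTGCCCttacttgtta
The windows of Cdkn2a and Bbc3 held neither, which says only that these letters are not in those windows. A match is a description of sequence and not evidence of binding.

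The libraries held 15740081 to 23479425 reads on genes. Phgdh RNA ranged from 372 to 885 FPKM in KO libraries and from 789 to 1410 FPKM in WT libraries, with lower KO means in all 4 conditions. The KO-to-WT difference passed the test in 3 of these and not alone in Ser/Gly-free medium, where the means were 695 ± 68.6 FPKM in KO and 800 ± 15.5 FPKM in WT cells (SD, n = 3 each, limma adjusted p = 0.115). The 7 epithelial and ductal markers, of which 6 or 7 reached 1 FPKM, summed to 3500 to 4140 FPKM in KO coculture, 4400 to 4600 FPKM in KO alone Ser/Gly-free, 1620 to 1860 FPKM in KO alone with Ser/Gly, 2230 to 2390 FPKM in WT coculture and 1130 to 1200 FPKM in WT alone. The keratins carried this sum, while Cdh1 stood at 93.8 to 148 FPKM in all libraries. The part of these markers in the results was not tested. The 12 hepatocyte markers summed to at most 1.04 FPKM in coculture and at most 1.04 FPKM alone, with Ahsg, Apoc3, Cyp2e1, Fga, Fgb, Serpina1c and Tat at 0 in every library. Of the 5 macrophage markers only Cd68 reached 1 FPKM, the summed level was 0.496 to 4.89 FPKM in KO and 6.88 to 9.73 FPKM in WT libraries, and Adgre1 was at 0 throughout. The 4 endothelial markers summed to at most 1.52 FPKM in KO and 0.059 FPKM in WT libraries, and the 5 stellate cell and fibroblast markers to at most 0.0855 FPKM. In bulk RNA, fewer cells that express a gene and less RNA per cell cannot be told apart. Some KO libraries stood apart in how read counts depended on GC content. The GC tilt, the median log2 deviation of the genes in the top tertile of GC content minus that in the bottom tertile, was −0.556, −0.224 and −0.271 in KO alone Ser/Gly-free, −0.476 in replicate 1 of KO alone with Ser/Gly, and −0.411 and −0.142 in replicates 2 and 3 of KO coculture Ser/Gly-free, against −0.044 to 0.195 in the 12 WT libraries. Replicate 1 of KO alone with Ser/Gly and replicate 2 of KO coculture Ser/Gly-free stood apart from their own replicates, and called changes of members that rest on them are also given from a fit without both.

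Cdkn1a encodes p21, an inhibitor of cyclin-dependent kinases that stops the cell cycle in G1 (ENSMUSG00000023067, chr17:29090976-29100727, plus strand, GRCm38). It was the member that moved most, 10.6-fold between its lowest and highest group means. It was higher in KO than in WT cells in all 4 conditions and higher in coculture than alone in all 4 settings. It rose on Ser/Gly withdrawal in KO cells alone, fell on withdrawal in KO cells in coculture, and passed no test of withdrawal in WT cells.

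In coculture without Ser/Gly, Cdkn1a stood at 71.4, 56.8 and 66.3 FPKM in replicates 1 to 3 of KO cells, against 46.9, 42.8 and 42.8 FPKM in WT cells. In coculture with Ser/Gly it stood at 89.6, 88.6 and 86.2 FPKM in KO cells, against 49.9, 49.1 and 50.1 FPKM in WT cells. Every KO library lay above every WT library in both media. Alone without Ser/Gly, Cdkn1a stood at 38.5, 49.0 and 47.1 FPKM in KO cells, against 7.71, 8.26 and 9.02 FPKM in WT cells. Alone with Ser/Gly it stood at 15.6, 21.95 and 23.4 FPKM in KO cells, against 8.14, 9.08 and 8.85 FPKM in WT cells. The groups again did not overlap, and the 6 WT libraries grown alone were the lowest of the 24.

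By group mean the order was KO coculture with Ser/Gly (88.1 FPKM), KO coculture Ser/Gly-free (64.8), WT coculture with Ser/Gly (49.7), KO alone Ser/Gly-free (44.9), WT coculture Ser/Gly-free (44.2), KO alone with Ser/Gly (20.3), WT alone with Ser/Gly (8.69) and WT alone Ser/Gly-free (8.33). Neighbours whose libraries overlapped were KO alone Ser/Gly-free with WT coculture Ser/Gly-free, and both WT groups grown alone. The plot of Cdkn1a, Mdm2 and Zmat3 shows all of these libraries.

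**Figure D1:**
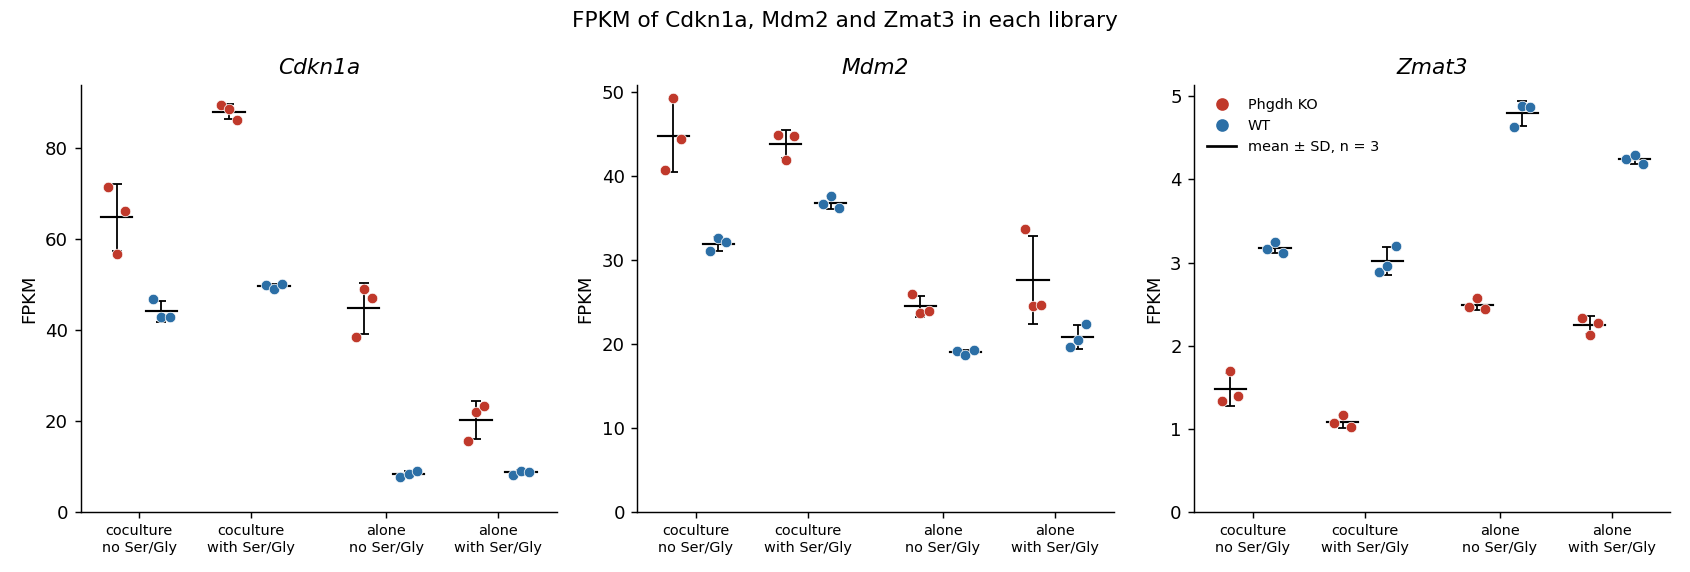
FPKM of Cdkn1a, Mdm2 and Zmat3 in every library (points), with Phgdh KO in red and WT in blue, for coculture and for cells alone, without and with serine and glycine; lines are means and bars are SDs of 3 libraries. In all 4 conditions KO libraries lie above WT libraries for Cdkn1a and Mdm2 and below them for Zmat3.

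The KO-minus-WT change of Cdkn1a on the log2(FPKM + 1) scale, which understates changes of genes with low FPKM, was 0.54 ± 0.115 in coculture Ser/Gly-free (SE, limma adjusted p = 0.000572). It was 0.81 ± 0.115 in coculture with Ser/Gly (limma adjusted p = 9.55e-06). Alone, it was 2.29 ± 0.115 without Ser/Gly (limma adjusted p = 7.4e-13) and 1.12 ± 0.115 with Ser/Gly (limma adjusted p = 1.98e-07). As ratios of mean FPKM, KO over WT, these were 1.47, 1.77, 5.38 and 2.34. Without the 2 libraries that stood apart, the changes were 0.63 in coculture Ser/Gly-free and 1.29 alone with Ser/Gly, both still called.

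The coculture-minus-alone change of Cdkn1a was 2.28 ± 0.115 in WT cells without Ser/Gly (limma adjusted p = 6.44e-12) and 2.39 ± 0.115 in WT cells with Ser/Gly (limma adjusted p = 2.76e-12), 5.30 and 5.72 times the mean FPKM of WT cells alone. In KO cells with Ser/Gly it was 2.08 ± 0.115 (limma adjusted p = 2.14e-11), 4.34 times the mean of KO cells alone. In KO cells without Ser/Gly it was 0.52 ± 0.115 (limma adjusted p = 0.00044), 1.45 times the mean of KO cells alone. The KO changes were 0.61 without and 1.91 with Ser/Gly when the 2 libraries that stood apart were left out. Whether the coculture change differs between the genotypes was not tested.

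Withdrawal of Ser/Gly raised Cdkn1a in KO cells alone by 1.12 ± 0.115 (limma adjusted p = 4.24e-08), 2.21 times the mean with Ser/Gly. In WT cells alone the change was −0.06 ± 0.115 (limma adjusted p = 0.928). The difference between these, KO minus WT, was 1.17 ± 0.162 (limma adjusted p = 3.88e-06). In coculture, withdrawal lowered Cdkn1a in KO cells by a log2 change of −0.44 ± 0.115 (limma adjusted p = 0.00748), 0.74 times the mean with Ser/Gly, and the change in WT cells was −0.17 ± 0.115 (limma adjusted p = 0.726). The withdrawal change in KO cells in coculture minus that alone was −1.56 ± 0.162 (limma adjusted p = 1.17e-07). The difference between genotypes alone was 1 and that between cultures −1.3 without the 2 libraries that stood apart, both called. In coculture the difference between genotypes did not pass the test (−0.28 ± 0.162, limma adjusted p = 0.248). The fall in KO coculture was not called without replicate 2 of KO coculture Ser/Gly-free (−0.35, limma adjusted p = 0.0535). Without both libraries that stood apart it was −0.35 and called (limma adjusted p = 0.00368), and the rise in KO cells alone was 0.95.

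A count of member genes is read against the share of all tested genes called in the same comparison, which was high wherever KO cells alone in Ser/Gly-free medium took part. For KO against WT, 6 of 10 members were called in coculture Ser/Gly-free (53.6% of all tested genes), 6 in coculture with Ser/Gly (43.9%), 10 alone Ser/Gly-free (73.6%) and 5 alone with Ser/Gly (42.7%). For coculture against alone, 7 were called in KO Ser/Gly-free (71.3%), 3 in KO with Ser/Gly (40.0%), 4 in WT Ser/Gly-free (28.1%) and 3 in WT with Ser/Gly (31.2%). For withdrawal, 5 were called in KO alone (70.8%), 6 in KO coculture (29.9%), 0 in WT alone (1.63%) and 0 in WT coculture (0.738%). At an unadjusted p under 0.05 in limma, 1 member passed for withdrawal in WT alone (Zmat3) and 2 in WT coculture (Mdm2 and Trp53inp1), and limma voom on the recovered reads called 0 in both. The share of all tested genes at an unadjusted p is not given here or for the lists below. Counts at that threshold are therefore not read as a result about the genes. Most of these counts lie near the share of all genes, and they mix rises and falls. The median log2 change of the 10 members, KO minus WT, was −0.07 in coculture Ser/Gly-free, 0.16 in coculture with Ser/Gly, −0.60 alone Ser/Gly-free and −0.08 alone with Ser/Gly, where the median of all tested genes was −0.01, 0.00, 0.00 and 0.00.

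**Figure D2:**
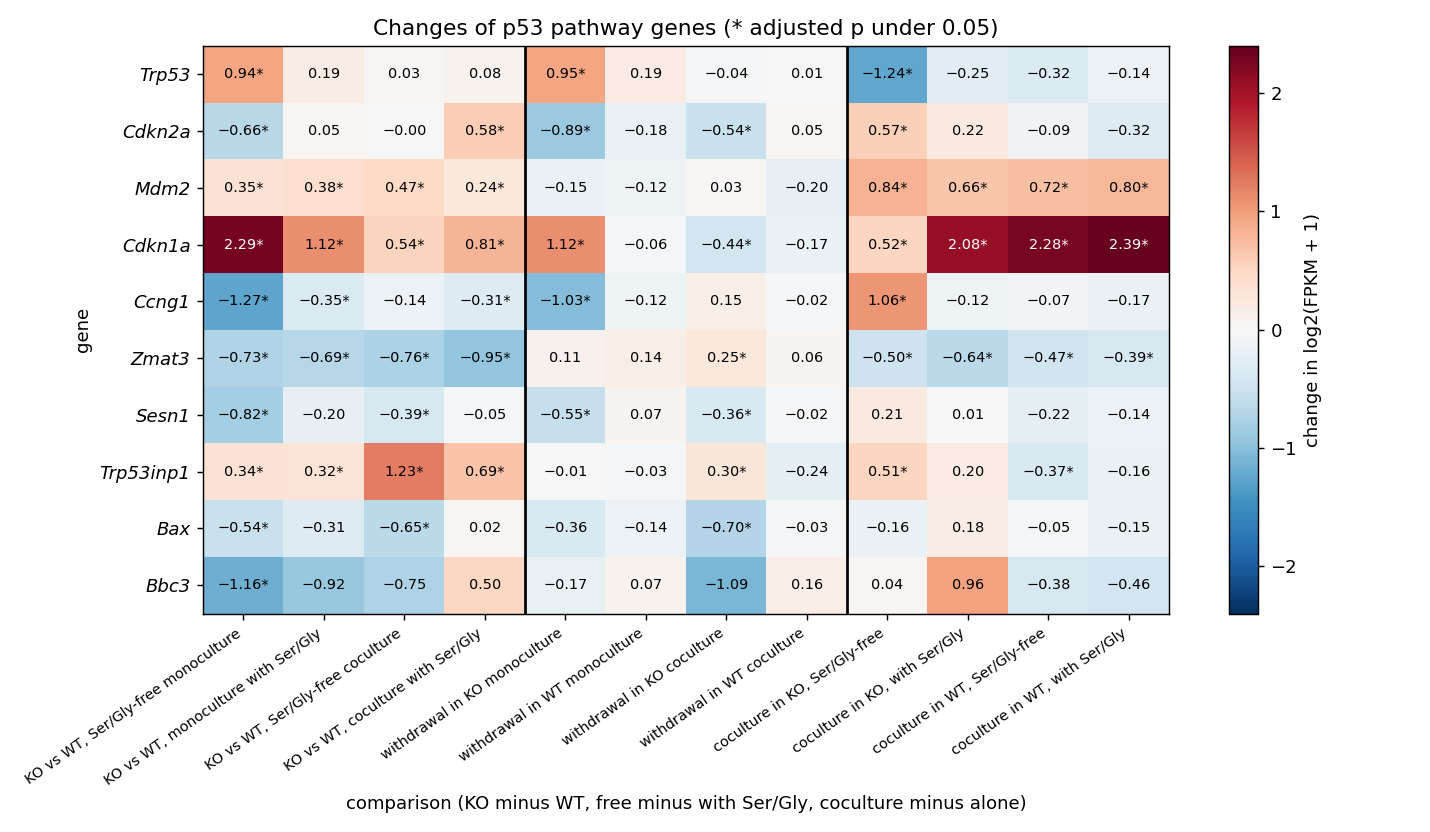
Change of each of the 10 genes on the log2(FPKM + 1) scale (colour and number) in 12 comparisons: KO minus WT, Ser/Gly-free minus with Ser/Gly, and coculture minus alone; an asterisk marks a limma adjusted p under 0.05. Cdkn1a and Mdm2 are positive and Zmat3 is negative with an asterisk in all 4 KO-to-WT and all 4 coculture columns, while the withdrawal columns of WT cells hold no asterisk.

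Trp53, which encodes p53 itself (ENSMUSG00000059552, chr11:69580359-69591873, plus strand), was a low transcript, with 67 to 382 reads per library, and 20.5% of the tested genes had a lower median FPKM. It stood at 4.12, 4.91 and 4.82 FPKM in KO cells alone without Ser/Gly, against 1.97, 1.67 and 2.11 FPKM in KO cells alone with Ser/Gly. In the 3 libraries of each of the other 6 groups it lay between 0.954 and 2.30 FPKM. Only KO cells alone in Ser/Gly-free medium were therefore apart from the rest, and they overlapped no other group. Withdrawal raised it in KO cells alone by 0.95 ± 0.126 (limma adjusted p = 1.54e-06), and this exceeded the withdrawal change of WT cells alone by 0.76 ± 0.178 (limma adjusted p = 0.00113). Against WT cells in the same condition it was 0.94 ± 0.126 higher (limma adjusted p = 1.35e-06). In KO cells without Ser/Gly it fell by 1.24 ± 0.126 on the log2 scale in coculture (limma adjusted p = 3.72e-08). In the other 9 comparisons of pairs of groups Trp53 did not pass the test, its changes ranging from −0.32 to 0.19. The −0.32, for coculture in WT cells without Ser/Gly, whose libraries did not overlap, was called under 5 alternatives, among them limma voom on the recovered reads (−0.61, limma adjusted p = 0.0268). When the 2 libraries that stood apart were left out, the withdrawal and coculture changes in KO cells were 0.96 and −1.28, and the difference from WT in withdrawal was 0.77, all called. The group means of Trp53 across the 8 groups had a Pearson correlation of −0.06 with those of Cdkn1a, a description over 8 means from the same libraries.

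Mdm2, the ubiquitin ligase that removes p53 and is itself a p53 target (ENSMUSG00000020184, chr10:117688875-117710758, minus strand), moved in the same directions as Cdkn1a by genotype and by coculture, with smaller changes. In coculture without Ser/Gly it stood at 40.7, 49.3 and 44.4 FPKM in KO cells, against 31.0, 32.6 and 32.1 FPKM in WT cells. In coculture with Ser/Gly it stood at 44.9, 41.9 and 44.8 FPKM in KO cells, against 36.7, 37.6 and 36.1 FPKM in WT cells. KO libraries lay above WT libraries without overlap, by 0.47 ± 0.090 (limma adjusted p = 0.000187) and 0.24 ± 0.090 (limma adjusted p = 0.0326). Alone without Ser/Gly it stood at 25.9, 23.7 and 23.9 FPKM in KO cells, against 19.1, 18.7 and 19.3 FPKM in WT cells. Alone with Ser/Gly it stood at 33.7, 24.5 and 24.7 FPKM in KO cells, against 19.6, 20.5 and 22.3 FPKM in WT cells. These groups too did not overlap, with changes of 0.35 ± 0.090 (limma adjusted p = 0.00175) and 0.38 ± 0.090 (limma adjusted p = 0.00194). The high value of 33.7 FPKM belonged to replicate 1 of KO alone with Ser/Gly, and without the 2 libraries that stood apart the change there was 0.23 (limma adjusted p = 0.00171). That in coculture without Ser/Gly was then 0.40, also called. The KO-to-WT call in coculture with Ser/Gly was lost in 7 of 16 alternatives, where limma adjusted p reached 0.229, and that alone without Ser/Gly was lost under quantile normalization (0.15, limma adjusted p = 0.183). Coculture raised Mdm2 by 0.66 to 0.84 in both genotypes and both media (4 of 4 comparisons called), with the 12 coculture libraries at 31.0 to 49.3 FPKM and the 12 libraries grown alone at 18.7 to 33.7 FPKM. The coculture changes in KO cells were 0.77 without and 0.81 with Ser/Gly in the fit without the 2 libraries that stood apart. The withdrawal values were −0.20 to 0.03, with 0 of 4 comparisons called. The −0.15 in KO cells alone was −0.23 and called after correction for GC content and gene length (limma adjusted p = 0.00138), and the −0.20 in WT coculture was called without the 2 libraries (limma adjusted p = 0.0394). Its group means had a Pearson correlation of 0.90 with those of Cdkn1a over the 8 groups.

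Cdkn2a encodes the CDK inhibitor p16Ink4a and, in another reading frame, p19Arf, an inhibitor of Mdm2 (ENSMUSG00000044303, chr4:89274471-89294653, minus strand). The deposited values are per gene, so these products cannot be told apart. The gene was abundant, and 97.8% of the tested genes had a lower median FPKM. In KO cells alone it stood at 78.7, 113 and 111 FPKM without Ser/Gly, against 148, 222 and 195 FPKM with Ser/Gly. In KO coculture it stood at 174, 130 and 147 FPKM without Ser/Gly, against 218, 223 and 209 FPKM with Ser/Gly. It was lower without Ser/Gly in both, with no overlap, by −0.89 ± 0.144 (limma adjusted p = 1.72e-05) and −0.54 ± 0.144 (limma adjusted p = 0.00961). The coculture change was −0.22 after correction for GC content and gene length (limma adjusted p = 0.0168), and was not called without replicate 2 of KO coculture Ser/Gly-free (−0.44, limma adjusted p = 0.0618). Without both libraries that stood apart the changes were −1.05 alone and −0.44 in coculture, both called. The libraries compared alone in that fit had a GC tilt of 0.128 and 0.197 with Ser/Gly, and −0.556 to −0.224 without. After the correction for GC content and gene length the change alone was −0.74 (limma adjusted p = 3.81e-09). The 12 WT libraries lay between 129 and 195 FPKM, and the WT withdrawal changes of −0.18 and 0.05 were not called. The withdrawal change of KO cells alone was below that of WT cells alone by a log2 difference of −0.71 ± 0.204 (limma adjusted p = 0.00527). Against WT cells in the same condition, KO cells were lower alone without Ser/Gly (−0.66 ± 0.144, limma adjusted p = 0.000376) and higher in coculture with Ser/Gly (0.58 ± 0.144, limma adjusted p = 0.00261). The other KO-to-WT differences were called only after the correction, at 0.26 in coculture without Ser/Gly (limma adjusted p = 0.00202) and 0.19 alone with Ser/Gly (limma adjusted p = 0.0223). Coculture raised it only in KO cells without Ser/Gly, by 0.57 ± 0.144 (limma adjusted p = 0.00148), among the 4 comparisons. In the fit without the 2 libraries the difference from WT in withdrawal alone was −0.87 and the coculture change in KO cells was 0.67, both called. The coculture change in WT cells with Ser/Gly, −0.32 and not called (limma adjusted p = 0.106), was called lower under 6 alternatives, among them limma voom (−0.40, limma adjusted p = 0.0265). When Ser/Gly was withdrawn from KO cells alone, Cdkn2a fell while Trp53 and Cdkn1a rose.

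Ccng1 encodes cyclin G1, a p53 target that binds phosphatase 2A and Mdm2 (ENSMUSG00000020326, chr11:40748552-40755311, minus strand). In KO cells alone without Ser/Gly it stood at 8.85, 6.88 and 7.11 FPKM, against 19.6, 19.1 and 20.1 FPKM in WT cells alone without Ser/Gly. In KO cells alone with Ser/Gly it stood at 20.1, 14.1 and 15.9 FPKM, and the KO coculture libraries lay between 14.7 and 19.0 FPKM. The KO libraries alone without Ser/Gly were the 3 lowest of the 24 for this gene. The KO-to-WT change there was −1.27 ± 0.102 (limma adjusted p = 9.58e-10), and withdrawal in KO cells alone changed it by −1.03 ± 0.102 (limma adjusted p = 2.44e-08). The withdrawal change of KO cells alone was below that of WT cells alone by −0.91 ± 0.144 (limma adjusted p = 1.92e-05), and in KO cells it was 1.18 ± 0.144 higher in coculture than alone (limma adjusted p = 9.5e-07). KO cells were also lower than WT cells alone with Ser/Gly (−0.35 ± 0.102, limma adjusted p = 0.0083) and in coculture with Ser/Gly (−0.31 ± 0.102, limma adjusted p = 0.0199), and the difference in coculture without Ser/Gly was not called (−0.14). The calls with Ser/Gly were lost in 2 of 16 alternatives alone and in 3 of 16 in coculture. After correction for GC content and gene length the change in coculture with Ser/Gly was −0.20 and still called (limma adjusted p = 0.00876). Omission of the 2 libraries that stood apart gave a change alone with Ser/Gly of −0.49 (limma adjusted p = 0.000104), and one in coculture without Ser/Gly of −0.22, called there (limma adjusted p = 0.0338). In the same fit the withdrawal change in KO cells alone was −0.90, and its differences from WT cells alone and in coculture from alone were −0.78 and 0.97, all called. Coculture raised it in KO cells without Ser/Gly by 1.06 ± 0.102 (limma adjusted p = 1.5e-08) and was not called in the other 3 comparisons. The same omission gave 0.98, also called.

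Zmat3 encodes an RNA-binding zinc finger protein (also called Wig1) that p53 induces (ENSMUSG00000027663, chr3:32334792-32366014, minus strand). KO cells had less of it than WT cells in all 4 conditions, and it was lower in coculture than alone in all 4 settings, the reverse of Cdkn1a and Mdm2. In coculture without Ser/Gly it stood at 1.33, 1.70 and 1.40 FPKM in KO cells, against 3.17, 3.25 and 3.12 FPKM in WT cells. In coculture with Ser/Gly it stood at 1.06, 1.17 and 1.02 FPKM in KO cells, against 2.88, 2.96 and 3.21 FPKM in WT cells. KO coculture libraries with Ser/Gly were the lowest of all groups. Alone without Ser/Gly it stood at 2.47, 2.57 and 2.45 FPKM in KO cells, against 4.63, 4.89 and 4.87 FPKM in WT cells. Alone with Ser/Gly it stood at 2.34, 2.13 and 2.27 FPKM in KO cells, against 4.25, 4.298 and 4.18 FPKM in WT cells. Every KO library of every condition lay below every WT library of every condition. The KO-minus-WT changes were −0.76 and −0.95 in coculture without and with Ser/Gly, and −0.73 and −0.69 alone without and with Ser/Gly, each with an SE of 0.056 and a limma adjusted p of at most 8.44e-09. The coculture changes were −0.50 and −0.64 in KO cells and −0.47 and −0.39 in WT cells, without and with Ser/Gly. With the 2 libraries that stood apart left out, the KO-minus-WT changes were −0.82 in coculture without Ser/Gly and −0.71 alone with Ser/Gly, and the coculture changes in KO cells were −0.56 and −0.62 without and with Ser/Gly, all called. Withdrawal raised it in KO coculture by 0.25 ± 0.056 (limma adjusted p = 0.00312). That call was lost in 3 of 15 alternatives, among them the correction for GC content and gene length (0.14, limma adjusted p = 0.054), and the change was 0.18 and called without the 2 libraries. Withdrawal was not called in the other 3 comparisons, of which that in KO cells alone (0.11) was called without the 2 libraries (0.13, limma adjusted p = 0.0374). Its group means had a Pearson correlation of −0.83 with those of Cdkn1a over the 8 groups. Of all tested genes, 15.9% were called in the same direction in all 4 KO-to-WT comparisons, as Cdkn1a, Mdm2, Trp53inp1 and Zmat3 were, and 9.47% in all 4 coculture comparisons, as Cdkn1a, Mdm2 and Zmat3 were. No tested gene (0 of 12061) was called in the same direction in all 4 withdrawal comparisons.

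Trp53inp1 encodes a nuclear protein that promotes p53 phosphorylation and autophagy (ENSMUSG00000028211, chr4:11156431-11174379, plus strand). In coculture without Ser/Gly it stood at 24.1, 29.4 and 27.7 FPKM in KO cells, against 9.99, 11.5 and 11.3 FPKM in WT cells. In coculture with Ser/Gly it stood at 22.2, 21.9 and 21.3 FPKM in KO cells, against 13.02, 13.9 and 12.4 FPKM in WT cells. The 6 KO libraries grown alone spanned 17.2 to 21.4 FPKM, and the 6 WT libraries grown alone 13.4 to 15.7 FPKM. Withdrawal in KO cells alone was not called (−0.01), but was −0.23 and called after correction for GC content and gene length (limma adjusted p = 6.63e-05). Its difference from WT cells alone, 0.02 and not called, was −0.20 and called after that correction (limma adjusted p = 0.00747). KO libraries lay above WT libraries in every condition, by 1.23 ± 0.090 in coculture without Ser/Gly (limma adjusted p = 1.01e-09), 0.69 ± 0.090 in coculture with Ser/Gly (limma adjusted p = 3.89e-06), 0.34 ± 0.090 alone without Ser/Gly (limma adjusted p = 0.00202) and 0.32 ± 0.090 alone with Ser/Gly (limma adjusted p = 0.00706). After correction for GC content and gene length the change alone without Ser/Gly was 0.13 (limma adjusted p = 0.0125), and it was not called under quantile normalization (0.19, limma adjusted p = 0.0832). With the 2 libraries that stood apart left out, the changes were 1.17 in coculture without Ser/Gly and 0.23 alone with Ser/Gly (limma adjusted p = 0.0349). Without Ser/Gly, coculture raised it in KO cells (0.51 ± 0.090, limma adjusted p = 4.31e-05) and lowered it in WT cells (−0.37 ± 0.090, limma adjusted p = 0.00382). With Ser/Gly the coculture changes had the same directions and were not called, at 0.20 in KO cells (limma adjusted p = 0.0795) and −0.16 in WT cells (limma adjusted p = 0.19). After the correction both were called, at 0.33 (limma adjusted p = 4.17e-06) and −0.17 (limma adjusted p = 0.00366). Withdrawal in KO coculture raised it by 0.30 ± 0.090 (limma adjusted p = 0.019), a call lost in 6 of 16 alternatives, among them the correction (0.09, limma adjusted p = 0.105). It exceeded the withdrawal change of WT coculture by 0.54 ± 0.127 (limma adjusted p = 0.00863), and by 0.28 after the correction (limma adjusted p = 0.00405). In the fit without the 2 libraries, the coculture change in KO cells without Ser/Gly was 0.45, the withdrawal change 0.24 (limma adjusted p = 0.0469) and the difference from WT 0.48, all called. It was the 1 member of 10 called for that difference between genotypes in coculture, where 14.4% of all tested genes were called.

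Sesn1 encodes sestrin 1, a stress-induced inhibitor of mTORC1 signalling (ENSMUSG00000038332, chr10:41809935-41908424, plus strand), and was a low transcript with 42 to 169 reads per library. In KO cells alone it stood at 0.729, 0.548 and 0.929 FPKM without Ser/Gly, against 1.92, 1.32 and 1.40 FPKM with Ser/Gly. In KO coculture it stood at 1.16, 0.849 and 0.996 FPKM without Ser/Gly, against 1.69, 1.32 and 1.71 FPKM with Ser/Gly. The 12 WT libraries lay between 1.42 and 2.30 FPKM, so the 6 KO libraries without Ser/Gly were the lowest of the 24. Withdrawal changed it by −0.55 ± 0.117 in KO cells alone (limma adjusted p = 0.000304) and by −0.36 ± 0.117 in KO coculture (limma adjusted p = 0.0262), the second a call lost in 7 of 15 alternatives, among them the fit without the 2 libraries that stood apart (−0.31, limma adjusted p = 0.0686). The withdrawal change of KO cells alone was below that of WT cells alone by −0.62 ± 0.165 (limma adjusted p = 0.00307). Against WT cells, KO cells were lower without Ser/Gly in coculture (−0.39 ± 0.117, limma adjusted p = 0.00903) and alone (−0.82 ± 0.117, limma adjusted p = 3.1e-06), and were not called with Ser/Gly. When the 2 libraries that stood apart were left out, the change in coculture without Ser/Gly was −0.33, the withdrawal change alone −0.45 and its difference from WT −0.52, all called, and the KO-to-WT difference alone with Ser/Gly was called at −0.30 (limma adjusted p = 0.0496).

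The apoptosis genes Bax, which permeabilises mitochondria (ENSMUSG00000003873, chr7:45461697-45466898, minus strand), and Bbc3, which encodes the BH3-only protein Puma (ENSMUSG00000002083, chr7:16308393-16318205, plus strand), were called higher in 0 of the 12 comparisons in the main fit. Bax stood at 34.6, 20.5 and 29.7 FPKM in KO coculture without Ser/Gly, against 44.1, 41.6 and 45.9 FPKM in WT coculture without Ser/Gly. It stood at 27.5, 35.2 and 30.6 FPKM in KO cells alone without Ser/Gly, against 45.3, 45.5 and 45.0 FPKM in WT cells alone without Ser/Gly. KO libraries lay below WT libraries without overlap in both, by −0.65 ± 0.190 (limma adjusted p = 0.00762) and −0.54 ± 0.190 (limma adjusted p = 0.0165). With Ser/Gly, the KO-to-WT differences of 0.02 in coculture and −0.31 alone were not called. Bbc3 stood at 8.63, 14.97 and 13.2 FPKM in KO cells alone without Ser/Gly, against 27.1, 28.9 and 28.1 FPKM in WT cells alone without Ser/Gly, a change of −1.16 ± 0.412 (limma adjusted p = 0.0159). Its KO groups were spread widely, with 4.82, 23.0 and 21.4 FPKM alone with Ser/Gly and 23.7, 5.99 and 12.6 FPKM in coculture without Ser/Gly. No other of its 12 comparisons was called, among them KO against WT in coculture with Ser/Gly, where KO libraries held 24.8, 29.8 and 27.7 FPKM and WT libraries 19.7, 16.2 and 21.5 FPKM (0.50 ± 0.412, limma adjusted p = 0.35). Without the 2 libraries that stood apart, that difference was called (limma adjusted p = 0.026). So was the coculture change of Bbc3 in KO cells without Ser/Gly, at 0.50 (limma adjusted p = 0.0321), where the main fit gave 0.04. With Ser/Gly its coculture change in KO cells was 0.96 ± 0.412 (limma adjusted p = 0.0726), without overlap. In WT cells it was −0.38 without and −0.46 with Ser/Gly, the second called without the 2 libraries (limma adjusted p = 0.049). The coculture changes of Bax were −0.16 to 0.18.

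The values of Bax and Bbc3 moved with the GC tilt of the library. Bbc3 has the highest GC content of the 10 genes, 67.1%, followed by Cdkn2a with 59.1% and Bax with 59.0%, where Ccng1 and Trp53inp1 have 39.5% and 39.4%. The 3 libraries with a tilt below −0.4 held the 3 lowest Bbc3 values, 4.82 to 8.63 FPKM, and the 3 lowest Bax values, 20.5 to 27.5 FPKM. After a correction for GC content and gene length, the KO-minus-WT change alone without Ser/Gly was −0.78 for Bbc3 (limma adjusted p = 0.00527), −0.30 for Bax (limma adjusted p = 0.0059) and −0.41 for Cdkn2a (limma adjusted p = 1.16e-05), and that in coculture without Ser/Gly was −0.39 for Bax (limma adjusted p = 0.00123). In single-library omissions, the alone Ser/Gly-free calls were lost without replicate 1 of the KO group (Bax −0.45, limma adjusted p = 0.0672; Bbc3 −0.95, limma adjusted p = 0.0733), and the Bax call in coculture Ser/Gly-free was lost without replicate 2 of the KO group (−0.44, limma adjusted p = 0.0634), while without both libraries that stood apart it was −0.44 and called (limma adjusted p = 0.000263). Withdrawal in KO coculture was called for Bax (−0.70 ± 0.190, limma adjusted p = 0.0103) and not for Bbc3 (−1.09 ± 0.412, limma adjusted p = 0.0521). Without the 2 libraries that stood apart these were −0.49 for Bax (limma adjusted p = 0.000352) and −0.63 for Bbc3 (limma adjusted p = 0.0273). The Bax call was lost without replicate 2 of KO coculture Ser/Gly-free alone (−0.49, limma adjusted p = 0.0803), and its change was −0.39 after the correction (limma adjusted p = 0.00271). Withdrawal in KO alone was called for neither gene (−0.36 and −0.17). Without the 2 libraries that stood apart it was called for both, at −0.68 for Bax (limma adjusted p = 1.07e-06) and −0.84 for Bbc3 (limma adjusted p = 0.00111). The libraries compared in that fit had a GC tilt of 0.128 and 0.197 with Ser/Gly, and −0.556 to −0.224 without. After the correction for GC content and gene length, withdrawal in KO alone was called for Bax (−0.24, limma adjusted p = 0.0221) and not for Bbc3. The corrected Cdkn1a change alone without Ser/Gly was 2.4, where the uncorrected one was 2.29.

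**Figure D3:**
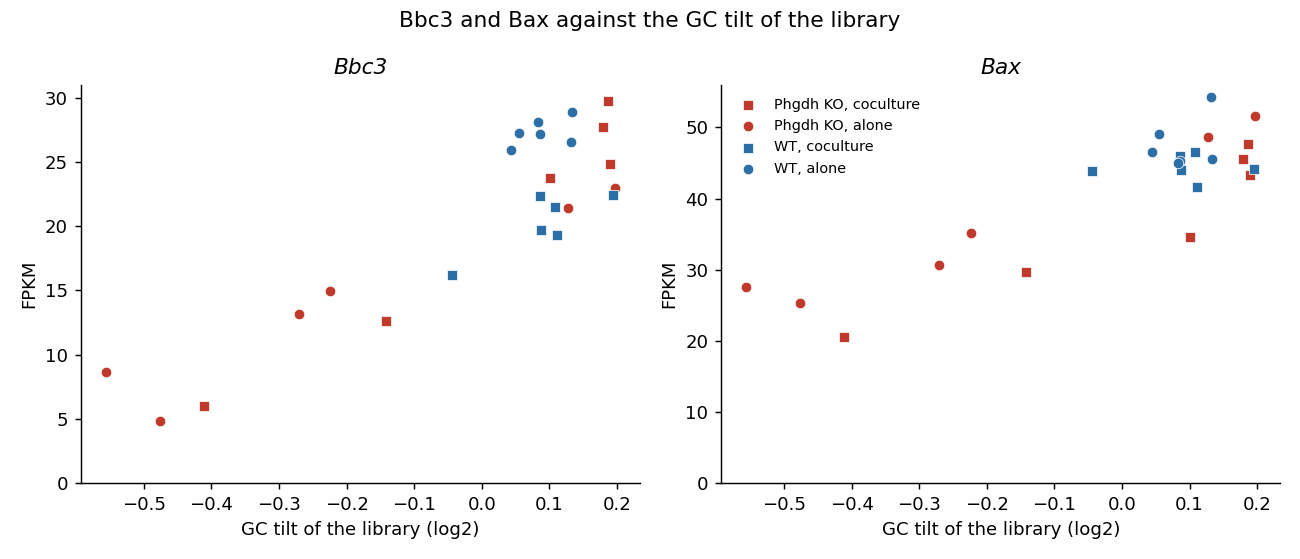
FPKM of Bbc3 and Bax (vertical axes) against the GC tilt of each of the 24 libraries (horizontal axis, log2 deviation of GC-rich minus GC-poor genes), with Phgdh KO in red, WT in blue, coculture as squares and cells alone as circles. The 3 KO libraries with a tilt below −0.4 hold the lowest Bbc3 values, 4.82 to 8.63 FPKM.

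**Figure D4:**
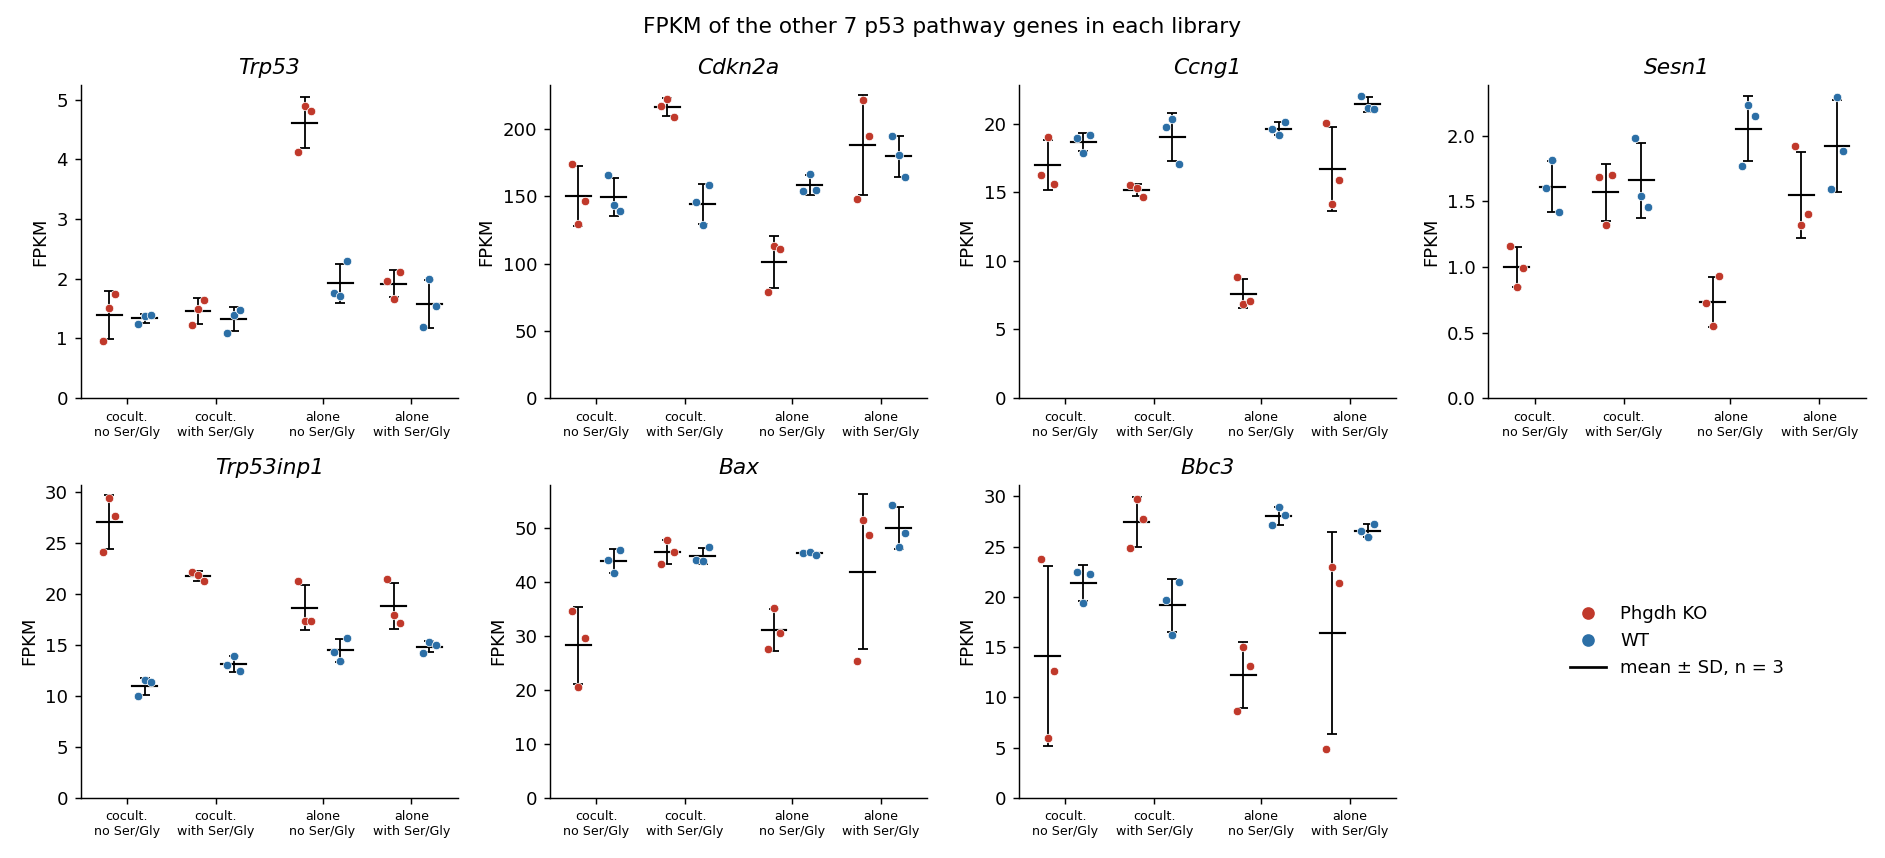
FPKM of the other 7 genes in every library (points), with Phgdh KO in red and WT in blue, for coculture and for cells alone, without and with serine and glycine; lines are means and bars are SDs of 3 libraries. KO cells alone without Ser/Gly are highest for Trp53 (4.12 to 4.91 FPKM) and lowest for Ccng1 (6.88 to 8.85 FPKM), and KO libraries lie above WT libraries for Trp53inp1 in all 4 conditions.

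The tests of differences between withdrawal responses called 5 of 10 members for KO against WT alone (61.2% of all tested genes), 1 in coculture (14.4%) and 4 for coculture against alone in KO cells (57.7%). Alone, the withdrawal change was higher in KO than in WT cells for Cdkn1a and Trp53, and lower for Ccng1, Cdkn2a and Sesn1. In KO cells, the withdrawal changes in coculture and alone differed for Cdkn1a (−1.56), Trp53 (−0.99 ± 0.178, limma adjusted p = 9.67e-05) and Ccng1 (1.18), and Trp53inp1 also passed (0.31 ± 0.127, limma adjusted p = 0.0445, lost in 12 of 22 alternatives). The Trp53 difference was −1.04 without the 2 libraries that stood apart, and the Trp53inp1 difference was 0.16 and not called (limma adjusted p = 0.269). That of Cdkn2a, not called (0.35 ± 0.204, limma adjusted p = 0.145), was called at 0.62 without the 2 libraries (limma adjusted p = 0.00828). After the correction for GC content and gene length it was 0.52, also called (limma adjusted p = 6.19e-05). These contrasts share libraries with the comparisons of pairs of groups and are not separate evidence.

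A wider list of 40 other p53 target genes had 34 tested members, and moved in both directions. For KO against WT, 9 were higher and 17 lower in coculture Ser/Gly-free, 9 higher and 12 lower in coculture with Ser/Gly, 10 higher and 16 lower alone Ser/Gly-free, and 6 higher and 15 lower alone with Ser/Gly. The called share of the list was 76.5%, 61.8%, 76.5% and 61.8% in this order, where it was 53.6%, 43.9%, 73.6% and 42.7% of all tested genes. Without the 2 libraries that stood apart, 8 were higher and 17 lower in coculture Ser/Gly-free (55.1% of all tested genes called in that fit), and 8 higher and 16 lower alone with Ser/Gly (46%). The list's median change was −0.21, −0.11, −0.16 and −0.20 in these, beside medians of all genes within 0.013 of 0. The largest changes alone without Ser/Gly were those of Dcxr, an enzyme of carbonyl and sugar reduction, at 0.653 FPKM in KO and 6.06 FPKM in WT cells (−2.10 ± 0.229, limma adjusted p = 8.37e-08), and of Slc19a2, a thiamine transporter, at 32.7 FPKM in KO and 7.77 FPKM in WT cells (1.94 ± 0.062, limma adjusted p = 8.57e-16). Ak1, adenylate kinase 1, was among the 4 largest called changes in all 4 conditions and lower in KO cells in each, with means of 0.0508 to 0.348 FPKM in KO and 1.29 to 2.13 FPKM in WT cells. Plk2, a polo-like kinase, averaged 37.3 FPKM in KO and 13.4 FPKM in WT cells alone without Ser/Gly. In coculture with Ser/Gly, Lif, a cytokine gene, averaged 4.80 FPKM in KO and 13.7 FPKM in WT cells (−1.34 ± 0.103, limma adjusted p = 3.22e-09), and Gls2, a mitochondrial glutaminase, averaged 1.26 FPKM in KO and 4.57 FPKM in WT cells.

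On coculture the same list had 13 higher and 13 lower in KO Ser/Gly-free, 8 and 9 in KO with Ser/Gly, 6 and 8 in WT Ser/Gly-free, and 6 and 11 in WT with Ser/Gly. These are 76.5%, 50%, 41.2% and 50% of the list, where 71.3%, 40.0%, 28.1% and 31.2% of all tested genes were called. Pmaip1, which encodes the BH3-only protein Noxa, averaged 19.9 FPKM in KO coculture and 6.90 FPKM in KO cells alone with Ser/Gly (1.40 ± 0.087, limma adjusted p = 1.42e-10, and 1.45 without the 2 libraries that stood apart). Lif averaged 13.7 FPKM in WT coculture and 2.92 FPKM in WT cells alone with Ser/Gly (1.90 ± 0.103, limma adjusted p = 1.74e-11), and Gls2 averaged 4.57 FPKM and 0.858 FPKM there (1.58 ± 0.113, limma adjusted p = 1.28e-09). Aen, an apoptosis nuclease, was lower in KO coculture, with 2.13 FPKM in coculture and 7.14 FPKM alone without Ser/Gly (−1.38 ± 0.068, limma adjusted p = 7.31e-13, and −1.31 without the 2 libraries). On withdrawal, 14 were higher and 13 lower in KO cells alone (79.4% of the list, 70.8% of all tested genes), 8 and 3 in KO coculture (32.4% and 29.9%), 0 and 1 in WT cells alone (2.94% and 1.63%), and 0 and 0 in WT coculture (0% and 0.738%). The counts on withdrawal without the 2 libraries were 13 higher and 12 lower in KO cells alone, and 6 and 1 in KO coculture, and those on coculture in KO cells were 13 and 14 without Ser/Gly, and 6 and 9 with it. In this order 73.5%, 28%, 73.3% and 40.8% of all tested genes were called in that fit. The 1 gene in WT cells alone was Gadd45a, a DNA damage response gene, at 66.1 FPKM without and 82.6 FPKM with Ser/Gly (−0.32 ± 0.079, limma adjusted p = 0.0486), a call lost after the correction for GC content and gene length (−0.27, limma adjusted p = 0.36). In WT coculture 2 of the 34 had an unadjusted p under 0.05 in limma, with no share of all genes beside it, and limma voom called 0.

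Among 23 regulators and partners of p53, of which 21 were tested, KO against WT cells had 8 higher and 3 lower in coculture Ser/Gly-free, 5 and 6 in coculture with Ser/Gly, 12 and 4 alone Ser/Gly-free, and 7 and 4 alone with Ser/Gly. These are 52.4%, 52.4%, 76.2% and 52.4% of the list, where it was 53.6%, 43.9%, 73.6% and 42.7% of all tested genes. Twist1, a transcription factor that restrains p53, was listed at 0 in all 12 WT libraries and stood at 1.52 to 4.08 FPKM in the 12 KO libraries. Rpl11, a ribosomal protein that binds Mdm2, averaged 92.5 FPKM in KO cells alone without Ser/Gly and 259 FPKM in KO cells alone with Ser/Gly (−1.48 ± 0.085, limma adjusted p = 7.88e-12, and −1.43 without the 2 libraries that stood apart). Chek1, a checkpoint kinase, averaged 2.91 FPKM and 0.866 FPKM in the same groups (1.08 ± 0.136, limma adjusted p = 6.74e-07, and 1.23 without the 2 libraries). Huwe1, a ubiquitin ligase for p53, averaged 15.6 FPKM in KO and 38.2 FPKM in WT coculture with Ser/Gly (−1.24 ± 0.082, limma adjusted p = 3.7e-10). On withdrawal 12 were higher and 4 lower in KO cells alone (76.2% of the list, 70.8% of all tested genes), 3 and 1 in KO coculture (19% and 29.9%), 4 and 0 in WT cells alone (19% and 1.63%), and 0 and 0 in WT coculture (0% and 0.738%). In WT coculture 2 had an unadjusted p under 0.05 in limma, with no share of all genes beside it, and limma voom called 0. Coculture gave 6 higher and 10 lower in KO Ser/Gly-free, 5 and 2 in KO with Ser/Gly, 3 and 2 in WT Ser/Gly-free, and 6 and 2 in WT with Ser/Gly. These are 76.2%, 33.3%, 23.8% and 38.1% of the list, where 71.3%, 40.0%, 28.1% and 31.2% of all tested genes were called. Omission of the 2 libraries gave 8 higher and 4 lower for KO against WT in coculture Ser/Gly-free, 6 and 4 alone with Ser/Gly, 13 and 3 on withdrawal in KO cells alone, 3 and 1 in KO coculture, and 6 and 12, and 5 and 1, on coculture in KO cells without and with Ser/Gly. In this order 55.1%, 46%, 73.5%, 28%, 73.3% and 40.8% of all tested genes were called in that fit. Ppp1r13l, which encodes the p53 inhibitor iASPP, averaged 29.5 FPKM in KO coculture and 13.4 FPKM in KO cells alone with Ser/Gly (1.12 ± 0.145, limma adjusted p = 4.37e-06, and 0.91 without the 2 libraries), and 29.5 FPKM in WT coculture and 14.3 FPKM in WT cells alone with Ser/Gly (0.98 ± 0.145, limma adjusted p = 2.51e-05).

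The other CDK inhibitors, the G1 cyclins and kinases, and the RB family, through which p21 acts, numbered 17 genes, of which 16 were tested. In KO cells alone, withdrawal gave 8 higher and 2 lower, 62.5% of the list where 70.8% of all tested genes were called, with a list median of 0.64 beside 0.00 for all genes. The genes named here were chosen after their values were seen: Rbl1, which encodes the RB relative p107, averaged 8.18 FPKM without and 1.01 FPKM with Ser/Gly (2.19 ± 0.106, limma adjusted p = 6.69e-13). Ccnd1, cyclin D1, averaged 81.5 FPKM without and 23.9 FPKM with Ser/Gly (1.73 ± 0.052, limma adjusted p = 6.02e-16). Ccne2, cyclin E2, averaged 8 FPKM without and 1.87 FPKM with Ser/Gly (1.65 ± 0.138, limma adjusted p = 2.19e-09). Without the 2 libraries that stood apart these changes were 2.21 for Rbl1, 1.68 for Ccnd1 and 1.79 for Ccne2. The list then had 8 higher and 3 lower, where 73.5% of all tested genes were called. In WT cells alone, withdrawal called 0 of the 16 (1.63% of all tested genes). At an unadjusted p under 0.05 in limma there were 3, with no share of all genes beside it, and limma voom called 0. In KO coculture it called 3 higher and 3 lower (37.5% of the list, 29.9% of all tested genes), and in WT coculture 2 higher and 0 lower (12.5% and 0.738%). For KO against WT the list had 3 higher and 7 lower in coculture Ser/Gly-free, 2 and 6 in coculture with Ser/Gly, 10 and 3 alone Ser/Gly-free, and 4 and 6 alone with Ser/Gly. These are 62.5%, 50%, 81.2% and 62.5% of the list, where 53.6%, 43.9%, 73.6% and 42.7% of all tested genes were called. For coculture it had 5 and 9 in KO Ser/Gly-free, 9 and 1 in KO with Ser/Gly, and 8 and 1 in WT in either medium. These are 87.5%, 62.5%, 56.2% and 56.2% of the list, where 71.3%, 40.0%, 28.1% and 31.2% of all tested genes were called. Omission of the 2 libraries gave 3 higher and 6 lower for KO against WT in coculture Ser/Gly-free, 4 and 6 alone with Ser/Gly, 3 and 1 on withdrawal in KO coculture, and 5 and 8, and 9 and 1, on coculture in KO cells without and with Ser/Gly. In this order 55.1%, 46%, 28%, 73.3% and 40.8% of all tested genes were called in that fit.

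The genes whose 8 group means ran most like those of Cdkn1a, among 4508 protein-coding genes whose means spanned at least 1 on the log2 scale, were Tpd52 (Pearson correlation 0.980), Acsl5 (0.968), Itga2 (0.963), Hk1 (0.963) and Anxa2 (0.962). These are correlations over 8 means taken from the same libraries, and these 5 are the highest of 4508 values. Itga2, which encodes an integrin subunit, averaged 87.3 FPKM in KO coculture with Ser/Gly and 12.2 FPKM in WT cells alone without Ser/Gly. Anxa2, annexin A2, averaged 830 FPKM and 83.9 FPKM in the same groups. Hk1, hexokinase 1, averaged 55.6 FPKM and 14.3 FPKM there. Among the other 9 members, only Mdm2 came near them (0.90), and the next were Trp53inp1 (0.39) on the positive side and Zmat3 (−0.83) and Sesn1 (−0.57) on the negative side.

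Annotated genes that overlap members were low. A TEC transcript opposite Cdkn1a stood at 0 to 0.623 FPKM, Gm45808 over Bax was at 0 in every library, and a transcript over Sesn1 reached at most 0.0594 FPKM. Whether counting used strand is not stated, so reads of Cdkn1a and of the transcript opposite it cannot be told apart.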

How the data were processed

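RNA was sequenced from 24 libraries of HY19636 cells. Per the submitters' processing notes, HISAT2 and the mouse build GRCm38 (mm10) were used. The sources used here do not give the counter, annotation release or strand setting. The authors deposited FPKM per gene, with gene lengths and positions. Values times gene length were whole multiples of 1 read (100% within 0.01 read), which returned 15740081 to 23479425 reads per library. The total used for scaling was 0.969 to 1.07 times each library's own, and 0 columns belonged to other samples.

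The 12061 genes that reached 1 FPKM in 3 or more libraries were tested as log2(FPKM + 1) in one limma model (3.58.1, R 4.3.3, trend, two-sided) with a mean for each of the 8 groups (16 residual degrees of freedom), and called at a Benjamini-Hochberg adjusted p under 0.05 over all tested genes. The test was tried on simulated data first. The members and the lists (40 other p53 targets, 23 regulators, 17 genes of CDK inhibitors and RB, and cell type markers) were chosen with earlier results of these data known. Named genes were all 10 members, Phgdh, up to 4 called genes of largest change per list of targets or regulators in a described comparison, and the 5 genes most correlated with Cdkn1a. Alternatives were the pseudocount, filters, quantile normalization, limma voom on recovered reads, only the compared groups, a replicate block and omission of each replicate, and, after seeing the data, omission of the 2 libraries that stood apart and a correction for GC content and gene length (99.9% of tested genes had both). Promoter sequences are from RefSeq (GRCm38.p6).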

Additional observations from a re-analysis of the deposited data

Results flagged for a closer look

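Withdrawal of serine and glycine had different effects in KO and WT cells for several members, by tests of the difference itself. Alone, the withdrawal change of KO cells minus that of WT cells was 1.17 for Cdkn1a, 0.76 for Trp53, −0.91 for Ccng1, −0.71 for Cdkn2a and −0.62 for Sesn1 on the log2(FPKM + 1) scale, 5 of the 10 members where 61.2% of all tested genes were called. In coculture, the same difference between genotypes was 0.54 for Trp53inp1, 1 of the 10 members where 14.4% of all tested genes were called. Within KO cells, the withdrawal change in coculture minus that alone was −1.56 for Cdkn1a, −0.99 for Trp53, 1.18 for Ccng1 and 0.31 for Trp53inp1. They are 4 of the 10 members, where 57.7% of all tested genes were called. Each of these differences rests on 3 libraries per group, and those alone share the KO libraries without serine and glycine whose GC tilt was −0.556 to −0.224. After the correction for GC content and gene length the difference between genotypes alone was 1.23 for Cdkn1a, 0.83 for Trp53, −1.20 for Ccng1, −0.60 for Cdkn2a and −0.69 for Sesn1, and that in coculture was 0.28 for Trp53inp1. Within KO cells it was −1.53 for Cdkn1a, −0.97 for Trp53, 1.24 for Ccng1 and 0.33 for Trp53inp1. The Trp53inp1 difference within KO cells was lost in 12 of 22 alternatives. Without the 2 libraries that stood apart it was 0.16 and not called (limma adjusted p = 0.269).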

How the results depend on the processing

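Of 65 called member changes, 48 were called under every alternative and 17 were lost under at least 1; of 1081 recomputed values 1030 kept direction and call, 51 kept direction only and 0 changed sign. Values not called as described were called 67 times under alternatives other than single omissions. The cause of the changes was not tested, except that a filter at FPKM 5 drops Trp53, Sesn1 and Zmat3 from the test. Counts of called members moved by over 1.5 times as follows. The share of all tested genes called moved too, and is given for omission of the 2 libraries and for the GC correction. Counts under the other settings have no such share beside them and are not read as a result about the members. For withdrawal in KO alone (5) the filter at FPKM 5 gave 3, and quantile normalization, omission of the 2 libraries that stood apart, the GC content and length correction, and that correction with the replicate block each gave 8. Of all tested genes 70.8% were called there in the main fit, 73.5% without the 2 libraries and 74.6% with the GC correction. For withdrawal in KO coculture (6) the fit of only the compared groups gave 2, and omission of single replicates 1 to 7, lowest without replicate 2 of KO coculture Ser/Gly-free. For withdrawal in WT coculture (0), 1 was called without the 2 libraries, with the GC correction, and with the correction and block. The share of all tested genes was 0.738% in the main fit, 2% without the 2 libraries and 2.02% with the GC correction. For KO against WT alone with Ser/Gly (5), only the compared groups gave 2. For coculture in KO with Ser/Gly (3), the correction with block gave 5. For coculture in WT with Ser/Gly (3), voom gave 6, only the compared groups 5, omission of the 2 libraries 5, the GC correction 5, and with the block 6. The share of all tested genes was 31.2% in the main fit, 40.6% without the 2 libraries and 38.8% with the GC correction. For the genotype difference in withdrawal alone (5), the filter gave 3. In coculture (1), the filter gave 2, voom 2, only the compared groups 3, omission of the 2 libraries 2, and omission of single replicates 1 to 5, highest without replicate 1 of KO coculture Ser/Gly-free. The share of all tested genes was 14.4% in the main fit and 18.5% without the 2 libraries. Deviations of same-numbered libraries had a median correlation of −0.008 over 84 pairs, 9 of them over 0.1, and 7 of 24 libraries correlated best with their own number. With 3 libraries per group this cannot exclude that equal numbers share a culture, which the labels do not state. The main fit used no pairing. The replicate block alone changed only coculture in WT Ser/Gly-free (5, against 4) and the coculture difference in withdrawal in KO cells (3, against 4). Under voom the median of all genes in WT coculture with Ser/Gly was −0.106, so changes there are relative to that. Reads of 42 to 382 per library limit Trp53 and Sesn1.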
